A study of Xenopus tropicalis with 11 samples.

Results

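This section describes 3872 genomic sites in Xenopus tropicalis embryos at which the homeodomain factors Otx2 and Lim1 (also called Lhx1) were found together with the coactivator p300, and without the repressor Gsc or the corepressor TLE. A site is an Otx2 peak on an assembled chromosome that shares at least 1 bp with a Lim1 peak and a p300 peak, and none with a Gsc or TLE peak. They were selected on these 5 peak lists and are 2.32% of the 166593 Otx2 peaks on the 10 chromosomes (194993 Otx2 peaks in all, scaffolds included) and are called p300-only sites below. The ChIP-seq libraries came from whole early gastrulae of the Nigerian A strain at stage 10.5, with 2000 to 3000 fixed embryos behind each chromatin sample and no treatment or mutation. There is 1 library for each of the 7 antibodies, and the 4 input controls were not analysed here. One input served both Otx2 and Lim1, another both TLE and p300, and another both histone marks. Embryos were taken whole, so peaks of different libraries at a site need not come from the same cells.

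At this stage the Spemann-Mangold organizer, above the dorsal lip, patterns the body axis and specifies the head. Otx2 and Lim1 activate head organizer genes there, whereas Gsc (goosecoid) represses genes and can recruit TLE, a corepressor of the Groucho family. p300 is an acetyltransferase whose substrates include lysine 27 of histone H3. The resulting mark, H3K27ac, is found at active enhancers and promoters, and H3K4me1 is found at enhancers whether active or only primed. Sites with both activators and the coactivator but neither repressor component are thus candidates for activated regulatory elements, and the question put to the data is how many carry these marks and how they lie relative to TLE.

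The sites were what was left of a larger group after TLE was removed. Of the Otx2 peaks on chromosomes, 27068 met a Lim1 peak and 21066 of these met no Gsc peak. p300 was found at 15834 of those, and only 3872 of the 15834 had no TLE peak. The sites were chosen by the presence or absence of peaks in these 5 lists, so the strengths of Otx2, Lim1 and p300 at the sites are given as a description. 4 groups of Otx2 peaks on chromosomes, all without Gsc, served for comparison. They were 11962 Otx2 and Lim1 peaks with both TLE and p300, 812 with TLE but no p300, 4420 with neither coregulator, and 22177 Otx2 peaks with p300 but neither Lim1 nor TLE.

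Otx2 peaks at the p300-only sites were weaker than the typical Otx2 peak. The p300 peaks there were near the middle of the whole p300 list, but weaker than at Otx2 peaks with p300 in general. Fold enrichment, the authors' ratio of a peak's signal to its local background, had a median of 3.38 for Otx2 at the p300-only sites, with the middle 50% of sites between 3.03 and 3.95 and extremes of 1.72 and 13.9. Only 38.0% of all chromosomal Otx2 peaks were at or below that median, and 3.41% of the sites were among the highest 10% of Otx2 peaks (fold of at least 5.84). The median p300 fold was 4.59 (middle 50% from 3.73 to 6.20, highest 37.9), near the middle of the p300 list, where 48.7% of peaks lay at or below it. Over the 84811 chromosomal Otx2 peaks that met p300, the median p300 fold was 5.65, and at p300 sites without Lim1 it was 5.11. The median Lim1 fold was 3.60 (3.31 to 4.02, highest 12.1), at or above 59.9% of the Lim1 list. The sites with both TLE and p300 had higher medians for Otx2 (4.82) and p300 (7.91) and nearly the same for Lim1 (3.59). The −log10 q of the peaks at the p300-only sites had medians of 2.15 for Otx2, 1.84 for Lim1 and 5.88 for p300, against 5.68, 1.78 and 22.5 at sites with TLE and p300. When every list was limited to a −log10 q of at least 2, 1003 sites met the rule, and 234 did at a limit of 3.

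The p300-only sites were narrower than sites with TLE and p300, but in the median somewhat wider than Otx2 peaks in general. Peaks of the 3 proteins lay over each other at the p300-only sites. The Otx2 peak had a median width of 154 bp (middle 50% from 94 to 243 bp, range 66 to 1232 bp), against 300 bp for sites with TLE and p300, 117 bp for sites with neither coregulator, 112 bp for p300 sites without Lim1 and 141 bp for all chromosomal Otx2 peaks. The strongest Lim1 peak at a p300-only site was 128 bp wide in the median and the strongest p300 peak 140 bp. For Lim1 this was wider than at sites with TLE and p300 (110 bp), although the Otx2 peaks there were wider. The p300 summit, the position of highest p300 signal, lay a median of 42 bp from the Otx2 midpoint at p300-only sites and inside the Otx2 peak at 3215 of them (83.0%, exact 95% interval 81.8 to 84.2). The Lim1 midpoint lay a median of 48 bp away and inside the Otx2 peak at 2792 sites (72.1%, 70.7 to 73.5). Neither showed a side, with 1952 p300 summits at lower and 1883 at higher coordinates than the Otx2 midpoint, and 1908 and 1929 Lim1 midpoints. Since the rule demands overlap, closeness itself is no finding. A wider Otx2 peak also meets others more easily. The order of Otx2 widths is thus in part set by the overlaps that each group demands or excludes.

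**Figure D1:**
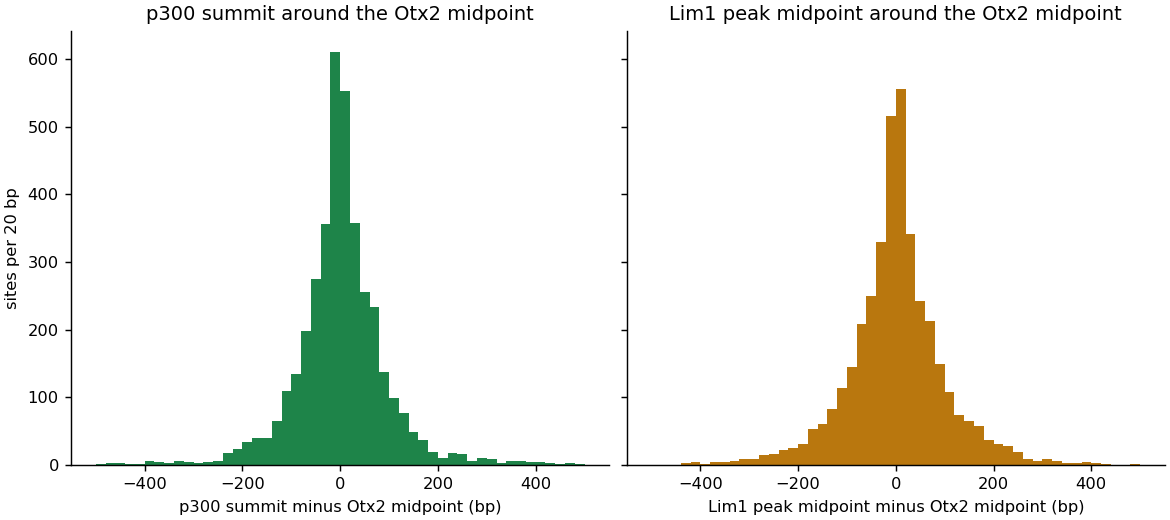
Histograms of the p300 summit (left) and the midpoint of the strongest Lim1 peak (right) relative to the Otx2 midpoint at the 3872 p300-only sites, in bp with bins of 20 bp. Both are centred on the Otx2 midpoint with like numbers on either side, and 16 summits and 8 midpoints beyond 500 bp are not drawn.

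Most sites met a single Lim1 peak and a single p300 interval. These counts were not made for other Otx2 peaks, so they show no trait particular to the sites. A single Lim1 peak was met by 3788 of the 3872 and a single p300 interval by 3553, while 319 met 2 or more p300 intervals, at most 4. Few partner peaks were shared, and 18 p300 intervals and 40 Lim1 peaks touched more than 1 site. The p300 and Lim1 peaks overlap Otx2 peaks that were chosen to lack TLE and Gsc, so how few of them met either is largely set by the rule. Of the 4196 p300 intervals at the sites, 76 (1.81%) met a TLE peak and 56 (1.33%) a Gsc peak, and of the 3917 Lim1 peaks, 65 (1.66%) met TLE and 127 (3.24%) Gsc.

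The edges of the rule were thinly filled. The largest overlap with Lim1 was at most 10 bp at 73 sites, of which 28 met H3K27ac, and the largest overlap with p300 was at most 10 bp at 30 sites, of which 18 did. Just outside, 29 Otx2 and Lim1 peaks missed a p300 peak by at most 10 bp, with H3K27ac at 18, and 52 Otx2 and p300 peaks missed a Lim1 peak by at most 10 bp, with H3K27ac at 17. A TLE peak lay within 10 bp of 8 p300-only sites (H3K27ac at 5), and 8 peaks were left out for a TLE overlap of at most 10 bp (H3K27ac at 4). For Gsc these numbers were also 8 inside and 8 outside, with H3K27ac at 6 of each. For reference, H3K27ac was met by 45.6% of all p300-only sites and 15.9% of all Otx2 peaks on chromosomes. Sets of 8 are too small to read a share from.

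H3K27ac, which the rule did not use, was met by 1764 of the 3872 p300-only sites, 45.6% (44.0 to 47.1), against 15.9% of all Otx2 peaks on chromosomes. H3K4me1 was met by 1818 sites, 47.0% (45.4 to 48.5), against 27% of all. Thus more than 50% of the sites shared no bp with an H3K27ac peak. By this overlap, the label of activated sites holds for fewer than 50% of them. The share depends on the definition used. Of the 2108 sites without overlap, 343 had an H3K27ac peak within 500 bp. With mark peaks limited to a −log10 q of at least 3, 23.0% of the sites met H3K27ac. A site without a mark may also lie below detection. Both marks were present at 1194 sites (30.8%, against 11.8% of all Otx2 peaks), H3K4me1 alone at 624 (16.1%, against 15.2%), H3K27ac alone at 570 (14.7%, against 4.11%) and neither at 1484 (38.3%, against 68.9%). The share with H3K4me1 alone was thus close to that over all Otx2 peaks, while the 3 other combinations were not. These and the intervals below cover counting error only, because there is 1 library per antibody and neighbouring peaks are not biological replicates.

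**Figure D2:**
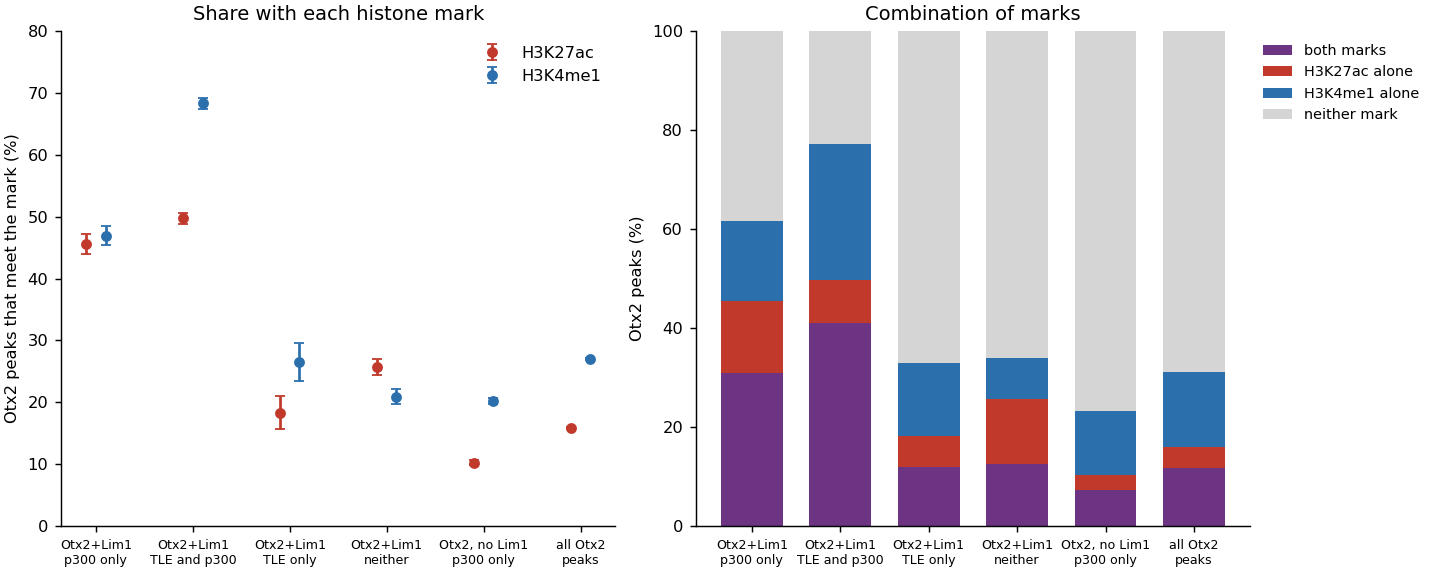
Left, the share of Otx2 peaks that met H3K27ac or H3K4me1 in each group, with exact 95% intervals; right, the same peaks divided by their combination of marks, in percent. The p300-only sites, at 45.6% for H3K27ac and 47.0% for H3K4me1, lie well above the groups without p300 or without Lim1, and below the sites with TLE and p300 for H3K4me1.

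Acetylation was more frequent at the p300-only sites than where either p300 or Lim1 was missing. H3K27ac was met by 45.6% of p300-only sites, by 25.6% (24.4 to 26.9) of Otx2 and Lim1 sites with neither coregulator, and by 10.2% (9.82 to 10.6) of Otx2 and p300 sites without Lim1. Since a wider peak meets others more easily, the groups were compared within 10 strata of Otx2 peak width, and the strata combined into a Mantel-Haenszel odds ratio. It was 2.14 (95% interval 1.95 to 2.35) against sites with neither coregulator and 6.21 (5.73 to 6.72) against p300 sites without Lim1. H3K4me1 gave 47.0% for p300-only sites, 20.9% with neither coregulator and 20.2% without Lim1, with odds ratios of 2.93 (2.65 to 3.23) and 2.98 (2.77 to 3.21). Against the 812 sites with TLE but no p300, which were added as a group once the data had been seen, H3K27ac was found at 45.6% and 18.2%, with an odds ratio of 4.15 (3.42 to 5.03), and H3K4me1 at 47.0% and 26.5%, with an odds ratio of 2.73 (2.30 to 3.25). For H3K27ac, the interval against those 812 sites reached down to 0.928 when every list was limited to a −log10 q of at least 3.

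Set against sites that also bear TLE, the p300-only sites had less H3K4me1 in most settings, while H3K27ac gave no settled order. H3K4me1 was met by 47.0% of p300-only sites and 68.3% (67.5 to 69.2) of sites with TLE and p300, an odds ratio of 0.683 (0.629 to 0.743) within strata of width. This turned to 1.31 (1.20 to 1.43) when overlap meant at least 50% of the shorter peak, a setting in which 42.2% and 40.8% met the mark. It was lower, at 0.410 with no strata, 0.407 within strata of Lim1 fold and 0.418 with mark peaks limited to a −log10 q of at least 3. Strata of p300 fold by width brought it close to 1, at 0.909 (0.833 to 0.992). H3K27ac was met by 45.6% and 49.7% (48.8 to 50.6). Within strata of width the odds ratio was 1.55 (1.42 to 1.68), but it was 0.905 (0.833 to 0.984) within strata of Otx2 fold and 0.845 (0.786 to 0.909) with no strata. It was higher, at 2.52 (2.30 to 2.77), when the 50% overlap was required, where 40.8% and 30.3% met H3K27ac. Strata of p300 fold gave 1.26 (1.16 to 1.36), and strata of p300 fold by width 1.90 (1.73 to 2.07). With mark peaks limited to a −log10 q of at least 3, 23.0% and 38.8% met H3K27ac and the odds ratio was 0.783 (0.713 to 0.859).

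H3K27ac without H3K4me1 was a sizeable combination at the p300-only sites. It made up 14.7% (13.6 to 15.9) of them, 8.82% (8.32 to 9.34) of sites with TLE and p300, 13.1% (12.1 to 14.1) of sites with neither coregulator and 2.94% (2.72 to 3.17) of p300 sites without Lim1. At the 570 such p300-only sites the nearest H3K4me1 peak was a median of 1975 bp away, with the middle 50% between 368 and 8742 bp, and at 178 (31.2%, 27.4 to 35.2) it was within 500 bp. At the 1055 such sites with TLE and p300 that median was 93 bp, and 796 (75.5%, 72.7 to 78.0) had H3K4me1 within 500 bp. The 579 such sites with neither coregulator had a median of 2190 bp, near that of the p300-only sites. The 651 such p300 sites without Lim1 lay between, with a median of 517 bp and 319 (49.0%, 45.1 to 52.9) within 500 bp. Most sites with TLE and p300 and H3K27ac alone thus had an H3K4me1 peak just beside them, and a minority of the p300-only sites did. The share with H3K27ac alone also depends on how often a group was acetylated. Among acetylated peaks, H3K4me1 was met by 67.7% of p300-only sites, against 74.1% of all Otx2 peaks. It was met by 82.3% with TLE and p300, 48.9% with neither coregulator and 71.3% of p300 sites without Lim1.

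The converse distance, from p300-only sites with no H3K27ac to the nearest H3K27ac peak, was also measured. At the 2108 such sites the median was 4437 bp, and 343 (16.3%, 14.7 to 17.9) had an H3K27ac peak within 500 bp. The median was 1816 bp for unacetylated sites with TLE and p300, 5812 bp with neither coregulator and 6230 bp for p300 sites without Lim1. Most unacetylated p300-only sites thus lay over 500 bp from any H3K27ac peak.

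The acetylated p300-only sites lay in H3K27ac peaks wider than the typical one, as did those of every comparison group. A wider H3K27ac peak is more easily met, so this excess is not particular to the p300-only sites. The median widths were 594 bp with TLE and p300, 494 bp for p300 sites without Lim1, 456 bp with neither coregulator and 343 bp with TLE but no p300. Taking the strongest H3K27ac peak at each of the 1764 sites gave 1704 different peaks with a median width of 482 bp (middle 50% from 290 to 776 bp) and a median fold of 3.08, against 276 bp and 2.69 over all 73687 chromosomal H3K27ac peaks. The whole Otx2 peak was contained in that H3K27ac peak at 1028 p300-only sites (58.3%), at 25.4% of sites with TLE and p300, at 62.4% with neither coregulator and at 54.9% of p300 sites without Lim1. The Otx2 midpoint lay in the middle 50% of the H3K27ac peak at 919 p300-only sites and outside that peak altogether at 241. At sites with TLE and p300, 2822 of 5951 Otx2 midpoints lay outside the H3K27ac peak they met. Acetylation at those sites thus often covered a flank of the Otx2 peak, and at p300-only sites more often its whole. Width differs between these groups and was not held fixed here.

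The same H3K27ac peaks were mostly free of TLE along their whole length, as were H3K27ac peaks in general. Of the 1704, 233 (13.7%, 12.1 to 15.4) met a TLE peak anywhere, against 31.2% (29.3 to 33.2) of the 2206 H3K27ac peaks at p300 sites without Lim1, 8.71% (7.11 to 10.5) of the 1102 at sites with neither coregulator, and 27.9% of all chromosomal H3K27ac peaks. All 3 groups lack TLE at the Otx2 peak by their choice. The H3K27ac peaks over all chromosomes carry no such exclusion, so 13.7% against 27.9% is in part set by the rule. Gsc was met by 165 (9.68%, 8.32 to 11.2) of the H3K27ac peaks at p300-only sites, 8.80% of those at sites with neither coregulator, 2.86% (2.20 to 3.64) of those at p300 sites without Lim1 and 1.84% (1.51 to 2.22) of those at sites with TLE and p300, against 5.20% of all. The rule removed Gsc at the Otx2 peak from each of these groups. The 241 acetylated p300-only sites whose H3K27ac peak held TLE were in wider H3K27ac peaks, with a median of 920 bp against 449 bp for the other 1523.

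The nearest TLE summit was typically a few kb away. Measured from the Otx2 midpoint, the median distance was 3452 bp at the p300-only sites, with the middle 50% between 1036 and 9092 bp and extremes of 57 and 97532 bp. A TLE summit lay within 1 kb of 934 p300-only sites (24.1%, 22.8 to 25.5), against 18.4% of all 84502 chromosomal Otx2 peaks without a TLE peak. The shares were 37.9% against 32.5% within 2 kb, 58.8% (2275 sites, 57.2 to 60.3) against 56.7% within 5 kb, and 77.1% against 78.6% within 10 kb. No TLE summit was found within 20 kb of 327 sites (8.45%). The distribution was thus close to that of Otx2 peaks without TLE in general, with somewhat more sites within 2 kb of a summit. Gsc summits, which are fewer, were a median of 21676 bp away.

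**Figure D3:**
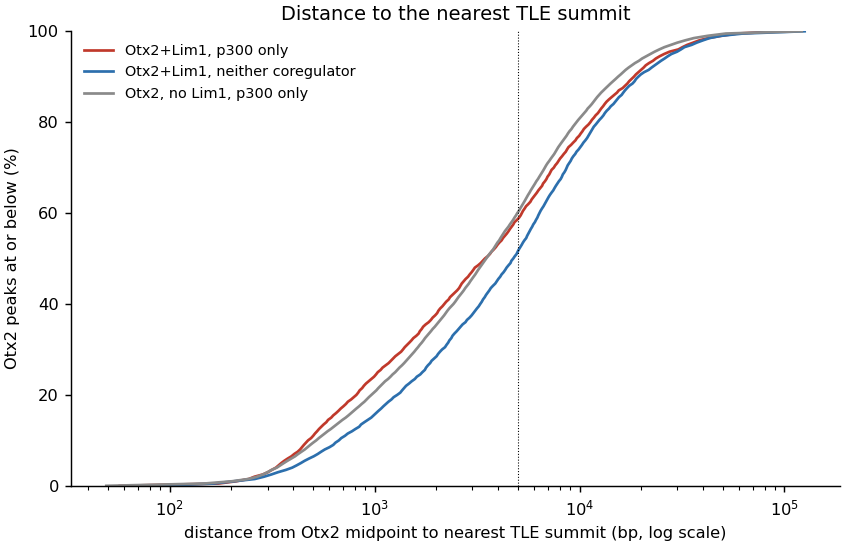
Cumulative share of Otx2 peaks (percent) by the distance from their midpoint to the nearest TLE summit (bp, log scale) for 3 groups that have no TLE peak; the dotted line marks 5 kb. The p300-only sites run above the sites with neither coregulator at 1 kb (24.1% and 15.6%) and still at 20 kb (91.6% and 90.6%), and cross the p300 sites without Lim1 near their median of 3452 bp.

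TLE was nearer to the p300-only sites than to Otx2 and Lim1 sites with neither coregulator. The medians were 3452 and 4748 bp, and 58.8% and 51.6% (50.1 to 53.1) had a TLE summit within 5 kb, an odds ratio of 1.36 (1.24 to 1.49) within strata of width. p300 sites without Lim1 had a median of 3507 bp and a summit within 5 kb at 60.1%, and the odds ratio of 0.978 (0.911 to 1.05) included 1. That comparison depended on the distance chosen, with an odds ratio of 1.13 (1.05 to 1.21) for summits within 2 kb and 0.819 (0.753 to 0.890) for summits within 10 kb. The TLE list took part in the rule, so these distances are a description.

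Among the p300-only sites, marks were most frequent both near TLE and far from it. In 4 groups of 968 sites ordered by distance to the TLE summit, from near to far, H3K27ac was met by 51.3% (48.1 to 54.5), 38.8%, 40.1% and 52.0% (48.8 to 55.2), and H3K4me1 by 59.4% (56.2 to 62.5), 40.3%, 40.4% and 47.7% (44.5 to 50.9). The nearest group ended at 1036 bp and the farthest began at 9092 bp. Marked sites were therefore found at both ends of the range, and the 2 groups between them had the lowest shares of either mark. The higher shares near TLE were not particular to these sites. With the same limits, H3K27ac was met by 34.6, 22.3, 22.7 and 26.5% of sites with neither coregulator. At p300 sites without Lim1 the shares were 25.8, 6.18, 6.07 and 5.62%. For H3K4me1 they were 34.2, 17.7, 18.8 and 18.3% with neither coregulator, and 40.9, 15.8, 13.9 and 14.0% without Lim1. Of the 66 p300-only sites with a TLE peak within 100 bp, 45 met H3K27ac. This count was not made for the other groups, so it shows nothing particular to the p300-only sites.

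The strength of the 3 proteins related differently to acetylation. The sites were divided by each measure into 4 bins of about equal size. From the lowest to the highest bin of Lim1 fold, H3K27ac was met by 36.8% (33.7 to 39.9), 44.4%, 49.0% and 52.1% (48.9 to 55.3) of the p300-only sites. By Otx2 fold the shares were 51.0% (47.8 to 54.2), 53.5%, 47.3% and 30.5% (27.6 to 33.5), and by p300 fold 49.8% (46.6 to 53.0), 49.8%, 45.1% and 37.9% (34.8 to 41.1). Acetylation was thus most frequent where Lim1 was strongest, and least frequent where Otx2 or p300 was strongest. H3K4me1 did not share this order for p300, with 46.2% in the lowest bin and 49.9% in the highest. By Otx2 peak width, H3K27ac was met by 32.7% (29.8 to 35.8), 39.8%, 49.3% and 60.2% (57.0 to 63.3), and H3K4me1 by 30.6%, 40.2%, 52.0% and 64.7%. Each measure was taken alone, with the others not held fixed. The trends were in part shared. The rise with width was found in every group. With the same limits of width, H3K27ac rose from 23.3 to 60.2% at sites with TLE and p300. The rise was from 17.8 to 35.2% with neither coregulator and from 7.05 to 21.3% at p300 sites without Lim1. With the same limits of Otx2 fold, H3K27ac fell from 35.3% in the lowest bin to 8.24% in the highest with neither coregulator. It fell from 15.2 to 6.94% at p300 sites without Lim1, but rose from 39.5 to 52.4% at sites with TLE and p300. With the same limits of Lim1 fold it rose from 42.6 to 55.6% at sites with TLE and p300. With neither coregulator it was 28.0% in the lowest bin and 15.9% in the highest.

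**Figure D4:**
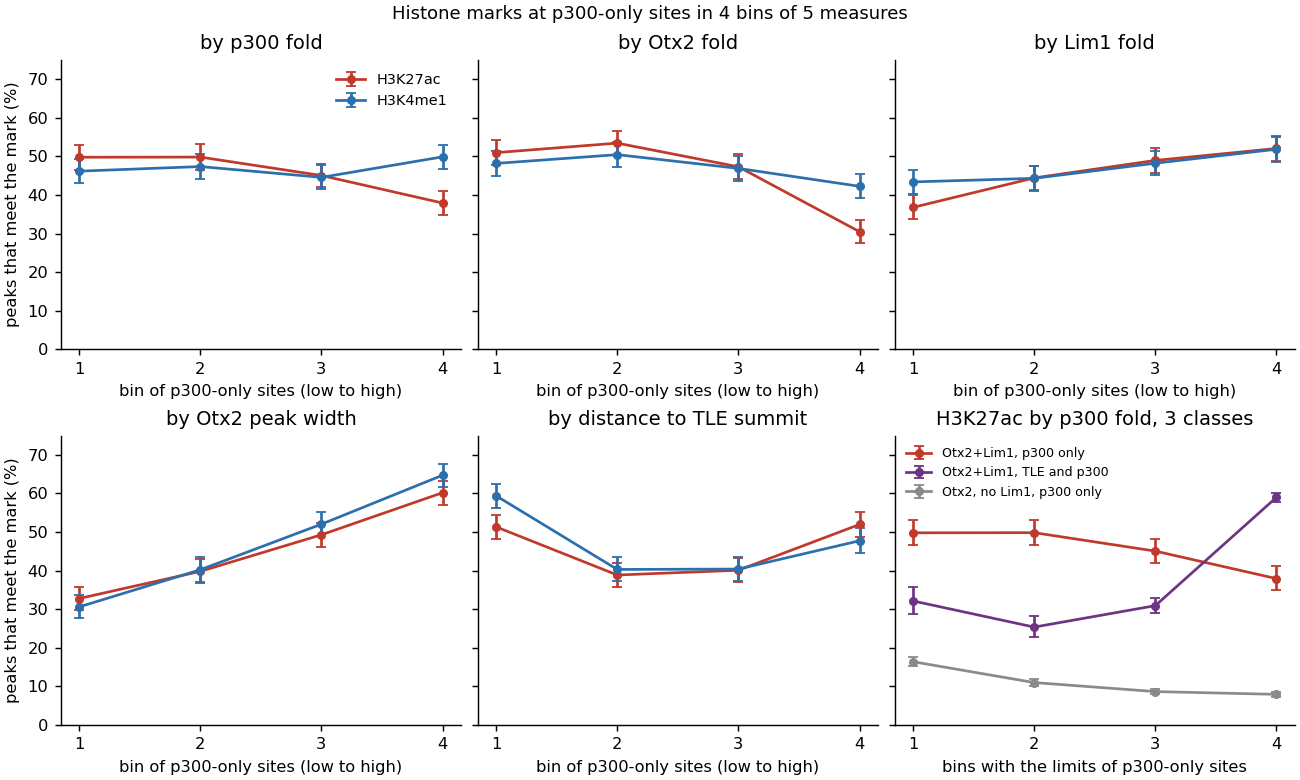
Share of p300-only sites (percent, exact 95% intervals) that met H3K27ac or H3K4me1 in 4 bins of p300 fold, Otx2 fold, Lim1 fold, Otx2 peak width and distance to the nearest TLE summit, and, in the last panel, H3K27ac by p300 fold in 3 groups with the same limits. H3K27ac was highest in the top bin of Lim1 fold (52.1%) and width (60.2%), and lowest in the top bin of Otx2 fold (30.5%) and p300 fold (37.9%), whereas sites with TLE and p300 reached 59.0% in the top p300 bin.

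The order of H3K27ac shares by p300 strength was another at sites with TLE, a contrast that was not itself tested. With the same limits of p300 fold (3.73, 4.59 and 6.20), the shares with H3K27ac from low to high were 32.1, 25.3, 30.9 and 59.0% (57.9 to 60.1) at sites with TLE and p300. At p300 sites without Lim1 they were 16.4, 10.9, 8.60 and 7.88%. Where p300 fold was below 3.73, 49.8% (46.6 to 53.0) of the p300-only sites and 32.1% (28.7 to 35.7) of the sites with TLE and p300 were acetylated. At a p300 fold of 6.20 or more these shares were 37.9% (34.8 to 41.1) and 59.0%, the opposite order. Otx2 peak width, with medians of 154 bp and 300 bp in these groups, was not held fixed here. Within strata of p300 fold by width, the odds ratio of H3K27ac at p300-only sites against sites with TLE and p300 was 1.90 (1.73 to 2.07).

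The sites were found on all 10 chromosomes, from 203 on chromosome 10 to 572 on chromosome 1. Per Mb of the stretch that peaks cover, chromosomes 10 and 9 had the most, with 5.08 and 3.95 sites, and the others had 2.54 (chromosome 7) to 3.38 (chromosome 8). The share of Otx2 peaks that are p300-only sites was also highest there, at 3.26% (2.84 to 3.74) on chromosome 10 and 3.07% (2.75 to 3.42) on chromosome 9, against 2.09 to 2.38% on the other 8. The share with H3K27ac varied from 42.3% (37.2 to 47.5) on chromosome 4 to 51.5% (46.9 to 56.1) on chromosome 2. For the share of Otx2 peaks that are p300-only sites, the intervals of chromosomes 9 and 10 lay above those of the other 8. The intervals for H3K27ac overlapped, which does not show that those shares were equal. All these intervals count neighbouring peaks as if independent, and differences between chromosomes were not tested.

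Neighbouring sites were a median of 156953 bp apart, and 861 (22.2%) had another p300-only site within 10 kb. Spacing was not computed for other Otx2 peaks, so whether it is particular to these sites is not known. Of 12731 windows of 100 kb, 2839 held a site and 200 held 3 or more. The densest window, on chromosome 5 from 69900001 to 70000000, held 15 sites between 69904898 and 69942853, of which 3 met H3K27ac, 2 met H3K4me1 and none met both. A window on chromosome 1 (178500001 to 178600000) held 14 sites amid 60 Otx2 peaks and 55 TLE summits, with a median of 451 bp to the nearest TLE summit. No site of that window met either mark. On chromosome 5, from 37100001 to 37200000, the marks were frequent by contrast, with H3K27ac at 8 and H3K4me1 at 10 of 11 sites, in 7 different H3K27ac peaks and with a median of 24270 bp to the nearest TLE summit. Dense runs of p300-only sites thus ranged from nearly fully marked to unmarked.

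The 5 sites ranked highest jointly were ranked by their lowest fold percentile among Otx2, Lim1 and p300. Of these 5, 1 had both marks, 2 had H3K4me1 alone and 2 had neither. Over all p300-only sites these shares were 30.8, 16.1 and 38.3%, and 5 sites are too few to differ from them. The top site lay on chromosome 5 at 69853180 to 69853319, 51.6 kb before the dense run of 15 sites, with folds of 10.04 for Otx2, 6.35 for Lim1 and 29.0 for p300. It was the only one of the 5 with both marks (fold 4.31 for H3K4me1 and 4.43 for H3K27ac), and its nearest TLE summit was 1607 bp away. The site on chromosome 10 at 30478812 to 30478896 had folds of 7.35 for Otx2, 6.19 for Lim1 and 27.9 for p300 but neither mark, and a TLE summit 6037 bp away. The site on chromosome 2 at 114296443 to 114296529 also had neither mark, with folds of 7.37, 6.45 and 15.7 in the same order. The remaining sites met H3K4me1 alone. They lay on chromosome 5 at 125809409 to 125809623 (folds of 5.86, 6.22 and 13.4) and on chromosome 2 at 15577603 to 15577904 (5.47, 5.24 and 16.6). The site at 15577603 lay in an H3K4me1 peak of 1125 bp with a TLE summit 18432 bp away.

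**Figure D5:**
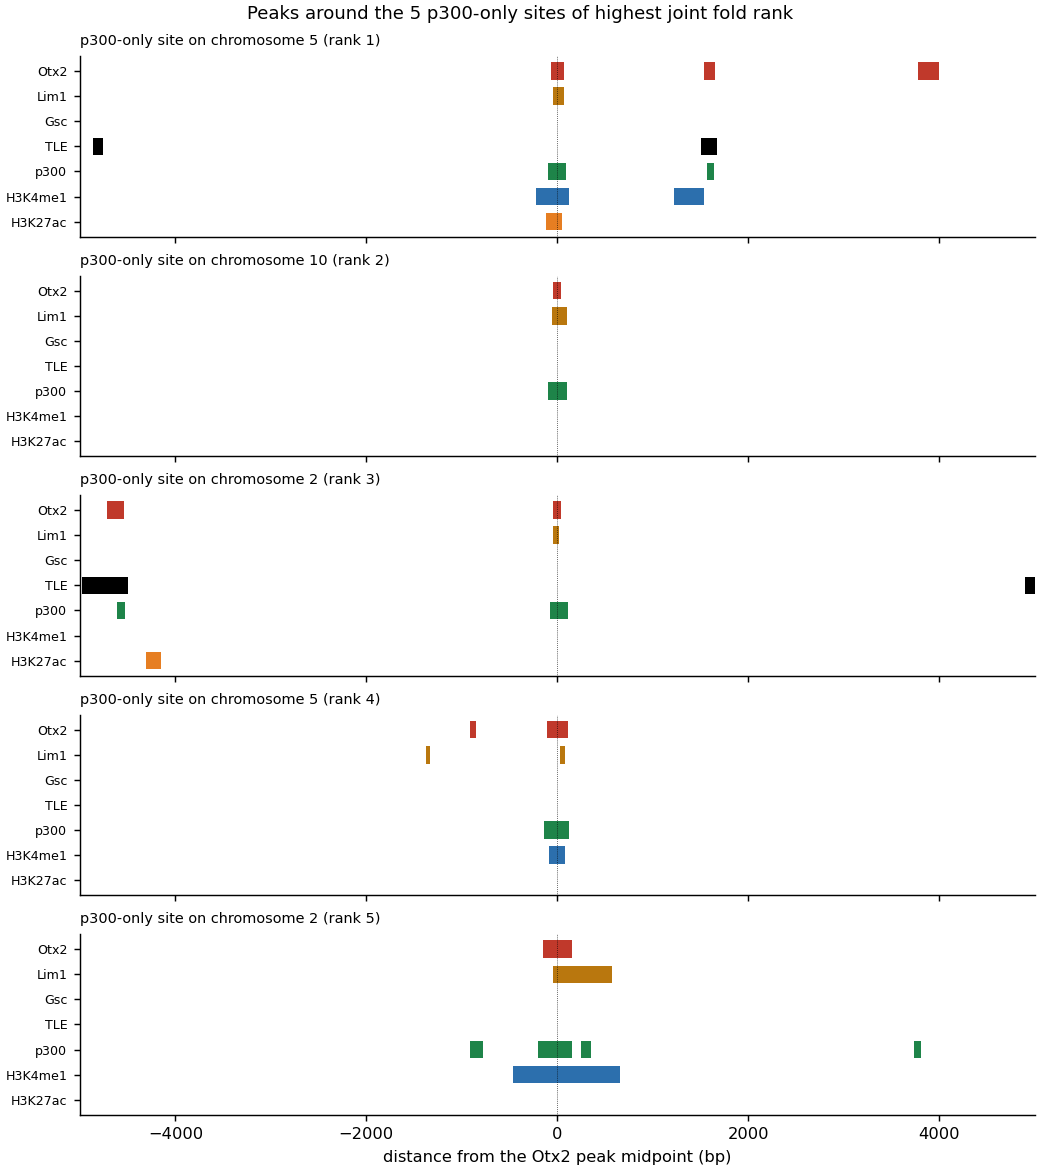
Peaks of all 7 libraries within 5 kb of the Otx2 midpoint (bp) at the 5 p300-only sites of highest joint rank; each bar is a peak drawn to scale. Otx2, Lim1 and p300 peaks overlap around position 0 in each, H3K27ac meets the Otx2 peak of the top site only, and TLE peaks appear beside 2 of the 5.

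The 3 sites farthest from TLE bore no mark, as did 38.3% of all p300-only sites. These 3 do not stand for distant sites in general, since 52.0% of the 968 sites farthest from TLE met H3K27ac. They lay on chromosome 5 at 138675751 to 138676304, on chromosome 6 at 11616851 to 11616994 and on chromosome 5 at 144152792 to 144152874, with TLE summits 97532, 96838 and 94020 bp away. Their Otx2 folds were 3.30, 2.87 and 2.87, and their p300 folds 3.44, 8.66 and 3.83. By its p300 fold, the site on chromosome 6 was thus among the highest 25% of p300-only sites. That fold belongs to a p300 interval of 836 bp whose summit lay 616 bp from the Otx2 midpoint, outside the Otx2 peak of 144 bp. None of the 3 met H3K27ac or H3K4me1. The widest site, 1232 bp on chromosome 1 at 83503046 to 83504277, met H3K4me1 but not H3K27ac and had a TLE summit 2297 bp away. The longest H3K27ac peak at any p300-only site, 2926 bp on chromosome 8, held 2 of the sites, at 112575159 to 112575295 and 112575859 to 112575975, with TLE summits 6188 and 5498 bp away. The next longest, 2801 bp on chromosome 7, held the site at 114733852 to 114733942, where the nearest summits were 239 bp away for TLE and 95 bp for Gsc.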

How the data were processed

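ChIP-seq peak lists of 7 libraries were analysed, 1 per antibody, and there are no replicates from which to give an error. Peaks were called with MACS2, and deepTools was also used, both per the submitters' processing notes without versions. Which aligner, build and filters on reads were used is not given in the sources used here. Gsc, TLE and p300 come as narrow peaks and the others as broad peaks, so widths and folds were compared within a list. The deposited columns are a fold enrichment (a ratio), a −log10 p and a −log10 q, and a score, which was checked to be 10 times the −log10 q without decimals within 1. The narrow lists were reduced to 1 line per interval, with the summit whose fold was highest; distances used all summits. Read depth is unknown.

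The gene table supplied uses UCB_Xtro_10.0, in which the last gene lies 10.6 to 29.6 Mb beyond the last peak on every chromosome. Sites are therefore given by the coordinates of the lists, counted from 1, and no gene, exon, motif or sequence is assigned to them.

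Overlap meant at least 1 bp. Shares have exact (Clopper-Pearson) 95% intervals. Groups were compared by Mantel-Haenszel odds ratios over 10 strata of Otx2 width. Their 95% intervals cover counting error over peaks only, so whether an interval excludes 1 is a description. No p is given, since peaks are not replicates. The code was tested on simulated data. The members, groups and tests were chosen with earlier results of these data known. Named sites follow a rule: the 5 of highest joint fold rank, the 3 farthest from TLE, the widest, the 3 in the longest H3K27ac peaks, and the 3 densest windows of 100 kb. Strata of p300 or Lim1 fold were alternatives added after the data were examined. Python 3.11.15, pandas 2.3.3 and SciPy 1.17.1 were used.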

Additional observations from a re-analysis of the deposited data

How the results depend on the processing

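No paired analysis was possible because there is only 1 library of each kind. Of 185 odds ratios under alternative settings, 166 kept both their direction and whether the interval excluded 1, among them 78 of the 80 with a chromosome left out. H3K27ac and H3K4me1 at p300-only sites against sites with neither coregulator and against p300 sites without Lim1, and TLE within 5 kb against sites with neither coregulator, kept both in every setting. Their H3K27ac odds ratios ranged from 1.69 to 5.72 and from 3.18 to 9.70 over the settings other than chromosomes, and their H3K4me1 odds ratios from 2.44 to 7.48 and from 1.95 to 3.65. H3K27ac against sites with TLE and p300 (1.55) was lost at a −log10 q of at least 2 in every list (1.01) and turned at 3 (0.741, interval including 1), at 3 in the mark lists alone (0.783), with strata of Otx2 fold (0.905) or Lim1 fold (0.841) and with no strata (0.845), and was larger with overlap of at least 50% (2.52) and strata of p300 fold by width (1.90). H3K4me1 against the same sites (0.683) turned to 1.31 with overlap of at least 50%. It moved away from 1 with strata of Lim1 fold (0.407), no strata (0.410) and mark peaks at a −log10 q of at least 3 (0.418). With strata of p300 fold by width it came close to 1 (0.909, interval 0.833 to 0.992). The TLE odds ratios counted among the 185 are a description, since the TLE list took part in the rule. TLE within 5 kb against p300 sites without Lim1 (0.978) was 0.872 with no TLE summit within 1 kb, a setting that itself removes near summits. It was 0.907 with strata of Otx2 fold, 0.891 with 1 peak per 10 kb, and 0.881 and 0.916 with strata of p300 fold and of p300 fold by width. Within 10 kb it was 0.819, and within 2 kb it turned to 1.13. Intervals excluded 1 in each of these settings. The odds ratio also lay above 1, with intervals that include 1, at limits on q of 2 (1.07) and 3 (1.03). The same held with the p300 summit inside the Otx2 peak (1.01) and without chromosome 5 (1.002) or 8 (1.008). Its direction is thus not settled. The cause of these changes was not tested. The number of sites was 1003 and 234 with the limits on q of 2 and 3. Peak lists carry no depth, so a site without a mark may lie below detection.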

Other observations

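Outside the chromosomes, 2006 of the 28400 Otx2 peaks on unplaced and other sequences (7.06%) met Lim1 and p300 but neither Gsc nor TLE. Of these, 1124 (56.0%, exact 95% interval 53.8 to 58.2) met H3K27ac and 1255 (62.6%, 60.4 to 64.7) met H3K4me1. The shares of all Otx2 peaks on these sequences that met either mark were not computed. These values therefore show no enrichment and cannot be set against those on chromosomes, where 2.32% of Otx2 peaks met the rule.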
